A study of Mus musculus with 2 samples.

Results

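Immature neutrophils rich in specific granule transcripts were examined in single-cell RNA libraries of bone marrow from aged C57BL/6J mice. Each of 2 groups was 1 library: FMT_young, aged recipients colonised by a fecal transplant whose donors were young, and FMT_aged, aged recipients whose donors were aged. No untransplanted or young recipient was analysed here. Per the labels, 1 part of sorted whole marrow was mixed with 1 part of lineage-negative cells and 4 parts of those that also carried Kit, so progenitors were enriched. How many mice went into each library is not given in the sources used here. A barcode was called a cell from 1000 unique molecular identifiers (UMIs) and 500 genes upward, with no more than 10% of its UMIs mitochondrially encoded. The granule-rich neutrophils were called cells with at least 3% of UMIs from S100a8 and S100a9, at least 1% from Ngp, Camp and Ltf, and under 2 UMIs of Top2a and Mki67. They numbered 559 of 11932 called cells in FMT_young and 363 of 11351 in FMT_aged, 922 of 23283 in all.

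Neutrophils are made in marrow in a fixed order of granule production. Promyelocytes fill primary granules with myeloperoxidase and serine proteases. Myelocytes and metamyelocytes then make the specific granule proteins, among them lactoferrin (Ltf), the cathelicidin precursor (Camp), neutrophilic granule protein (Ngp) and lipocalin 2 (Lcn2), under transcription factors that include C/EBP epsilon (Cebpe). Band and segmented cells make gelatinase granules (Mmp9), then the chemokine receptor Cxcr2 used to leave the marrow. S100a8 and S100a9 encode the subunits of calprotectin, an abundant cytosolic calcium-binding and metal-sequestering protein of neutrophils.

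With 1 library per group there was no residual spread, so no test between the groups was possible and no p-value is given. Intervals are 95% and exact (Poisson for a level, Clopper-Pearson for a share, conditional binomial for a ratio). They cover counting error only, not the spread between cells, animals or libraries. Levels are UMI counts scaled to 1000000 (CPM) of the summed cells, and ratios are log2 of FMT_young over FMT_aged. A gene is called higher or lower where it differed at least 1.5-fold and the interval excluded no difference.

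**Figure D1:**
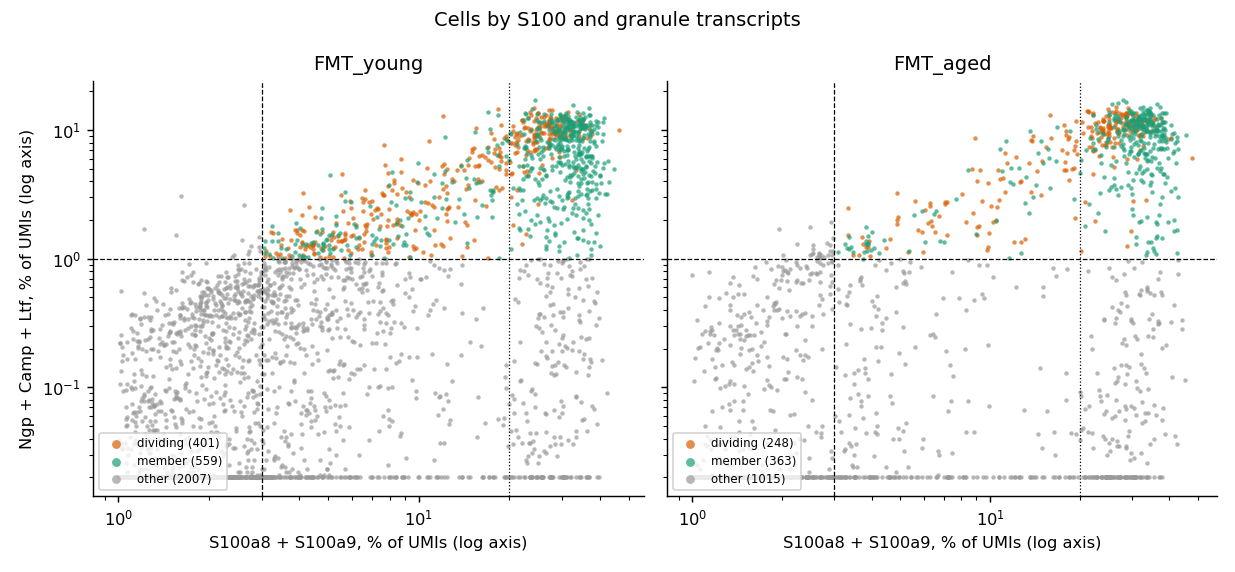
Each point is a called cell of 1 library (green, members; orange, dividing granule-rich cells; grey, others), by the percent of its UMIs from S100a8 and S100a9 (x, log axis) and from Ngp, Camp and Ltf (y, log axis, cells with none drawn at the bottom edge). Dashed lines are the limits of 3% and 1%, the dotted line is 20%, and only cells with at least 1% S100 are drawn. The 559 and 363 members fall into a dense group right of the dotted line and a thin band left of it that runs down to the lower limits.

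The granule-rich neutrophils were shallow, low-RNA cells in which the 5 S100 and granule genes of the rule held 31.5% of UMIs in FMT_young and 36.8% in FMT_aged. Their median depth was 5131 UMIs and 1312 genes in FMT_young and 5685 UMIs and 1355 genes in FMT_aged, against medians of 12439 and 13000 UMIs over all called cells. The median mitochondrial share was 0.985% and 1.08%. S100a8 and S100a9 took a median of 29.3% and 31.4% of a cell's UMIs, and Ngp, Camp and Ltf took 5.25% and 8.14%. Levels in the members rest on summed depths of 3326359 (FMT_young) and 2194537 UMIs (FMT_aged). The libraries shared 34 barcodes among called cells and 0 among the members.

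The markers named for this stage were Ltf, Ngp, Camp, Lcn2, S100a8 and S100a9. All were present, but all except Lcn2 chose the cells. The rule gathered more than 1 kind of cell. S100 content was split: 416 members in FMT_young and 305 in FMT_aged held at least 20% of UMIs in S100a8 and S100a9, and 143 and 58 held less. This limit of 20% was set after the data had been seen. In the S100-low members, immunoglobulin transcripts took 10.7% of UMIs in FMT_young and 4.60% in FMT_aged. Mpo, Elane, Prtn3 and Ctsg, the primary granule proteases and peroxidase of promyelocytes, took 1.06% and 1.38%. Among S100-high members the immunoglobulin share was 0.196% and 0.113%, and the primary granule share 0.0393% and 0.0319%.

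Counted by cell, 68 of 143 S100-low members in FMT_young and 2 of 58 in FMT_aged held at least 5% immunoglobulin, and 67 and 32 held at least 1% from the primary granule genes. None of the 721 S100-high members did either. High doublet scores marked 36 and 17 of the S100-low members but 2 and 5 of the S100-high members. In barcodes under 100 UMIs, which hold free RNA, immunoglobulin was 8.99% and 4.67%. Among S100-low members the median immunoglobulin share was 4.13% in FMT_young and 0.173% in FMT_aged. Of these members, 98 of 143 and 34 of 58 met at least 1 of the 5% and 1% marks. Many S100-low members, though not all, therefore went against the label, and all are called only S100-low members below. Most comparisons that follow are given for the S100-high members as well or for them alone.

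Among the S100-high members, markers of several other blood cells were low or at 0, but the monocyte and plasma cell sums were higher. The 6 macrophage markers summed to 101 and 84.7 CPM, with Cd5l at 0 in both libraries and C1qa, C1qb and C1qc at 0 in FMT_aged. The 6 stem and progenitor markers summed to 44.5 and 46.4 CPM. The 7 monocyte markers summed to 1497 and 1366 CPM, of which Ly6c2, also at 1015 and 1102 CPM in B cells, gave 1481 and 1337 CPM, and Fn1 was at 0 in FMT_aged. The 6 plasma cell markers summed to 1895 and 1036 CPM, with Igkc at 1141 and 664 CPM and Ighm at 674 and 315 CPM. The 6 erythroid markers summed to 82.3 and 7.02 CPM. The 6 promyelocyte markers summed to 440 and 373 CPM, against 11134 and 14532 CPM in the S100-low members.

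The granule-rich neutrophils were 4.68% (4.31 to 5.08) of called cells in FMT_young and 3.20% (2.88 to 3.54) in FMT_aged, a log2 ratio of 0.55 (0.36 to 0.75). For the S100-high members the shares were 3.49% and 2.69%, a ratio of 0.38 (0.16 to 0.59). For the S100-low members they were 1.20% and 0.511%, a ratio of 1.23 (0.78 to 1.70). With the granule limit at 5% in place of 1%, the ratio was 0.15. As a share of the cells with at least 20% S100, the S100-high members were 52.0% (48.5 to 55.5) in FMT_young and 45.5% (41.6 to 49.3) in FMT_aged. The direction turned with a wider denominator: of cells with at least 3% S100, the S100-high members were 22.9% (21.0 to 24.9) in FMT_young and 28.5% (25.8 to 31.3) in FMT_aged, a ratio of -0.31 (-0.53 to -0.10), and all members were 30.8% and 33.9%, a ratio of -0.14 (-0.33 to 0.05). The sorted fractions were mixed before the libraries were made, so a difference in this mixing and a difference in the marrow cannot be told apart.

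Cells just inside and just outside the limits were alike in some respects and not in others. The 35 FMT_young members just above the granule limit (1 to 1.25%) had a median S100 share of 4.78% and Elane at 4560 CPM. The 65 cells just below it (0.75 to 1%) had 5.70% and Elane at 4842 CPM. In FMT_aged the 20 members just above had 4.15% S100 and Elane at 6592 CPM, and the 15 cells just below had 25.1% and Elane at 4294 CPM. At the division limit, members with 1 UMI of Top2a or Mki67 numbered 80 and 44, and cells with 2 UMIs numbered 53 and 16. Their median S100 share was 8.79% and 26.4% with 1 UMI, and 6.66% and 9.07% with 2. A further 57 barcodes in FMT_young and 17 in FMT_aged met the gene rules but had at least 500 and under 1000 UMIs, and 14 and 18 were over the mitochondrial limit.

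The leading transcripts of the S100-high members were those of calprotectin and the specific granules. These levels chose the cells or were measured in the cells chosen, so they are descriptions. S100a8 stood at 158226 CPM in FMT_young and 148434 in FMT_aged, and S100a9 at 153243 and 171741 CPM. Ngp was at 34291 and 37441 CPM, and Camp at 30509 and 38226 CPM. Lcn2, which binds bacterial siderophores, was at 16598 and 18262 CPM, and Ltf, which binds iron, at 10860 and 13096 CPM. S100a8 led in FMT_young and S100a9 in FMT_aged, and Camp was below Ngp in FMT_young and above it in FMT_aged, while Lcn2 and Ltf followed in both.

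Other leading genes were the cytoskeletal peptide gene Tmsb4x at 21727 and 21705 CPM, lysozyme (Lyz2) at 11449 and 12815 CPM, the resistin-like protein Retnlg at 12250 and 11002 CPM and Wfdc21 at 6471 and 6037 CPM. Malat1, a nuclear long noncoding RNA, was at 15663 and 10616 CPM, a ratio of 0.56 on the log2 scale. Malat1 was at 23312 and 12103 CPM in B cells and 26223 and 17060 CPM in T cells, so it was higher in FMT_young there too. Over the whole rule, Igkc and Ighm were also among the 15 leading genes. Igkc was at 19974 CPM in FMT_young and 5370 in FMT_aged over all members but at 1141 and 664 CPM in the S100-high members.

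The specific granule list held 14 genes, all of them measured. Below the leading genes, Chil3, a chitinase-like lectin, was at 3550 CPM in FMT_young and 5313 in FMT_aged in the S100-high members. The peptidoglycan-binding protein gene Pglyrp1 was at 3594 and 3747 CPM. Cybb, which encodes the membrane subunit of the NADPH oxidase, was at 2087 and 2331 CPM, and its partner Cyba at 1714 and 1839 CPM. Haptoglobin (Hp) was at 1246 and 1513 CPM, and the surface antigen gene Cd177 at 1500 and 1747 CPM. The lowest of the list were Abca13 at 102 and 82.0 CPM and Olfm4 at 289 and 267 CPM.

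Olfm4, which encodes olfactomedin 4 and is known to mark a subset of neutrophils, was unlike the others of its list in how it was spread over cells. It had a UMI in 42 of 416 S100-high members (10.1%) in FMT_young and in 28 of 305 (9.18%) in FMT_aged. The cells that held it held much of it, with a median of 15 UMIs in FMT_young and 19.5 in FMT_aged, and at most 39 and 53. Cells with 5 or more Olfm4 UMIs numbered 39 and 24 and carried 98.7% and 98.0% of all its UMIs in these members. Ngp, by contrast, had a UMI in all 416 and all 305 cells. Olfm4 was thus present in a like minority of cells in both libraries.

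Detection was also taken at equal depth. Each cell was thinned to 2000 UMIs, which left out 4 and 3 shallower S100-high members. Ltf was then seen in 96.4% of these members in FMT_young and 97.4% in FMT_aged, against 1.21% and 1.15% of B cells, which should lack it. Ltf helped choose the members, so this contrast is a description. Without thinning the values were 97.8% and 98.4% in the members and 7.76% and 6.12% in B cells, whose median depth was 16544 and 15810 UMIs. Ly6g, the surface antigen by which mouse neutrophils are sorted, was seen in 68.0% and 68.9% after thinning, and in 0 of 2154 thinned B cells in FMT_young (at most 0.171%) and 0.0524% in FMT_aged. Elane was seen in 17.7% and 15.6% of the members and in 41.0% and 44.4% of B cells. The B cell rule sets no limit on Elane, and whether Elane UMIs in the S100-high members are background was not tested.

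On GRCm38, Camp is at chr9:109847379-109849617 on the minus strand, Ngp at chr9:110419747-110423012 and Ltf at chr9:111019271-111042767, both on the plus strand (GENCODE vM21, all protein-coding). S100a9 (chr3:90692632-90695721) and S100a8 (chr3:90668978-90670035) are neighbours on chromosome 3, and Lcn2 (chr2:32384633-32388252) and Fcnb (chr2:28076378-28084885) are on chromosome 2. Promoter sequence is shown for 2 of the genes that were high together, for Fcnb, which was higher in S100-high members of higher granule share, and for Retnlg, which was lower in them. The letters searched were TTGCNNAA and, on the other strand, TTNNGCAA, a form of the palindromic core bound by C/EBP proteins. RefSeq windows (GRCm38.p6) begin 250 bases before the gene start. Only the bases before the GENCODE gene are printed, on the strand of the gene, with matches in capitals. The RefSeq start of Retnlg is not a transcript start in GENCODE.
Ngp, chr9:110419558-110419746, plus strand: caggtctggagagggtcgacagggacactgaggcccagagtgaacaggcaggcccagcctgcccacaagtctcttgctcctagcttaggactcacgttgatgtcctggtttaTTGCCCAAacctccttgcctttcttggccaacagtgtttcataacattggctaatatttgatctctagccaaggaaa
Ltf, chr9:111019042-111019270, plus strand: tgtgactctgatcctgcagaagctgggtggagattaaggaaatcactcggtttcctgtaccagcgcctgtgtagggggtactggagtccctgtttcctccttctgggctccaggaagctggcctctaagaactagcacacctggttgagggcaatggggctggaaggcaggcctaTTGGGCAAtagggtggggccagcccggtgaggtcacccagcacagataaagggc
Fcnb, chr2:28084886-28085128, minus strand: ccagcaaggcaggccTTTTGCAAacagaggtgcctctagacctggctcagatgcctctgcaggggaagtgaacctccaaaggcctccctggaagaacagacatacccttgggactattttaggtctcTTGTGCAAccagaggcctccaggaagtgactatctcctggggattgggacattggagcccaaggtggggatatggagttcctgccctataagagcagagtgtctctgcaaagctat
Retnlg, chr16:48872358-48872607, plus strand: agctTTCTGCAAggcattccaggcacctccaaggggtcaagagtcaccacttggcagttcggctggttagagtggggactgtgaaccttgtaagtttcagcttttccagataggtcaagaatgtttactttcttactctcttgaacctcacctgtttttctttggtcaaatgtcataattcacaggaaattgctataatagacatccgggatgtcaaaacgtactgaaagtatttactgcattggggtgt
Over the full windows, Ngp and Fcnb held 2 matches each, and Ltf, Lcn2, Retnlg and Mmp8 held 1 each. Camp, Chil3, Ccl6 and Cxcl2 held 0. At least 1 match was present in 9.56% of 32851 windows of this length. A match is only a run of letters, found both in genes higher and in genes lower at high granule share.

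The granule-rich neutrophils sat between dividing granule-rich cells and S100-rich cells low in granule transcripts. The neighbours were defined on the same genes, so these differences are descriptions. With at least 20% S100 in each, the dividing cells (2 or more UMIs of Top2a and Mki67) numbered 160 and 153 and the low-granule cells 224 and 213. Median depth was 13362 and 12160 UMIs in the dividing cells, 5380 and 5836 in the members and 3231 and 2836 in the low-granule cells. Cells with 2 UMIs each of Fcnb and Elane and under 3% S100, a progenitor stage, numbered 1615 and 1130.

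**Figure D2:**
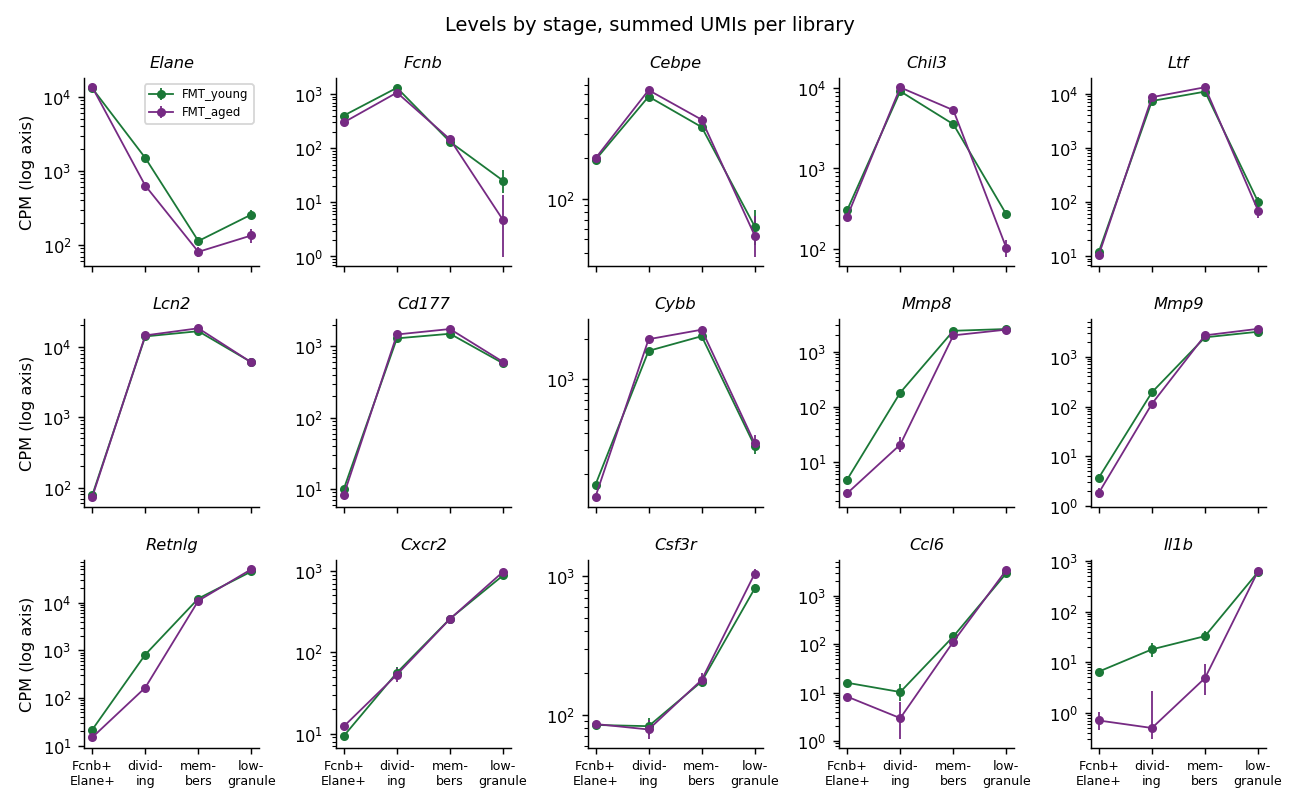
CPM of 15 genes (y, log axis) in Fcnb and Elane cells and in dividing cells, granule-rich members and low-granule cells with at least 20% S100 (x), 1 line per library. Bars are exact 95% Poisson intervals. Ltf, Lcn2, Cd177 and Cybb peak in the members, Fcnb, Cebpe and Chil3 peak one stage earlier, and Retnlg, Cxcr2, Csf3r, Ccl6 and Il1b are highest in low-granule cells.

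Ltf was at 7312 and 8579 CPM in dividing cells (FMT_young and FMT_aged), 10860 and 13096 in the members, and 101 and 69.0 in low-granule cells. Lcn2 was at 13992 and 14466, 16598 and 18262, then 6011 and 5985 CPM. Low Ltf defines the low-granule cells, whereas Lcn2 is not part of the rule. Chil3 was highest in dividing cells, at 9124 and 10190 CPM, and stood at 268 and 102 CPM in low-granule cells. Fcnb, a secreted ficolin that binds microbial sugars, was at 1312 and 1069 CPM in dividing cells, 131 and 146 in the members and 25.2 and 4.70 in low-granule cells. Cebpe, the factor of specific granule formation, was at 572 and 639 CPM in dividing cells, 340 and 386 in the members and 62.3 and 53.3 in low-granule cells.

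Some genes were higher in the low-granule cells. Retnlg was at 813 and 165 CPM in dividing cells, 12250 and 11002 in the members and 45336 and 50627 in low-granule cells. Mmp8, which encodes the neutrophil collagenase, was at 181 and 20.7 CPM, then 2398 and 1982, then 2583 and 2518. It had thus nearly reached its level of the low-granule cells. Mmp9 was at 193 and 113, 2433 and 2670, and 3150 and 3602 CPM. Cxcr2, by contrast, was at 259 and 257 CPM in the members and 880 and 977 in low-granule cells, and Ccl6 at 144 and 112 against 2922 and 3422 CPM. Il1b, the interleukin 1 beta gene, was at 32.7 and 4.86 CPM in the members and 609 and 632 in low-granule cells.

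The members also varied among themselves along the share of granule transcripts. S100-high members were placed in 4 bins of Ngp, Camp and Ltf share (1 to 2%, 2 to 5%, 5 to 10% and 10% or more), and levels were taken over UMIs other than those of the genes of the rule. FMT_young had 35, 105, 166 and 110 cells in the bins and FMT_aged had 23, 43, 117 and 122, so FMT_aged had more of its cells at high granule share. Median depth went from 4440 UMIs in the lowest bin to 6972 in the highest in FMT_young, and from 4117 to 6404 in FMT_aged.

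**Figure D3:**
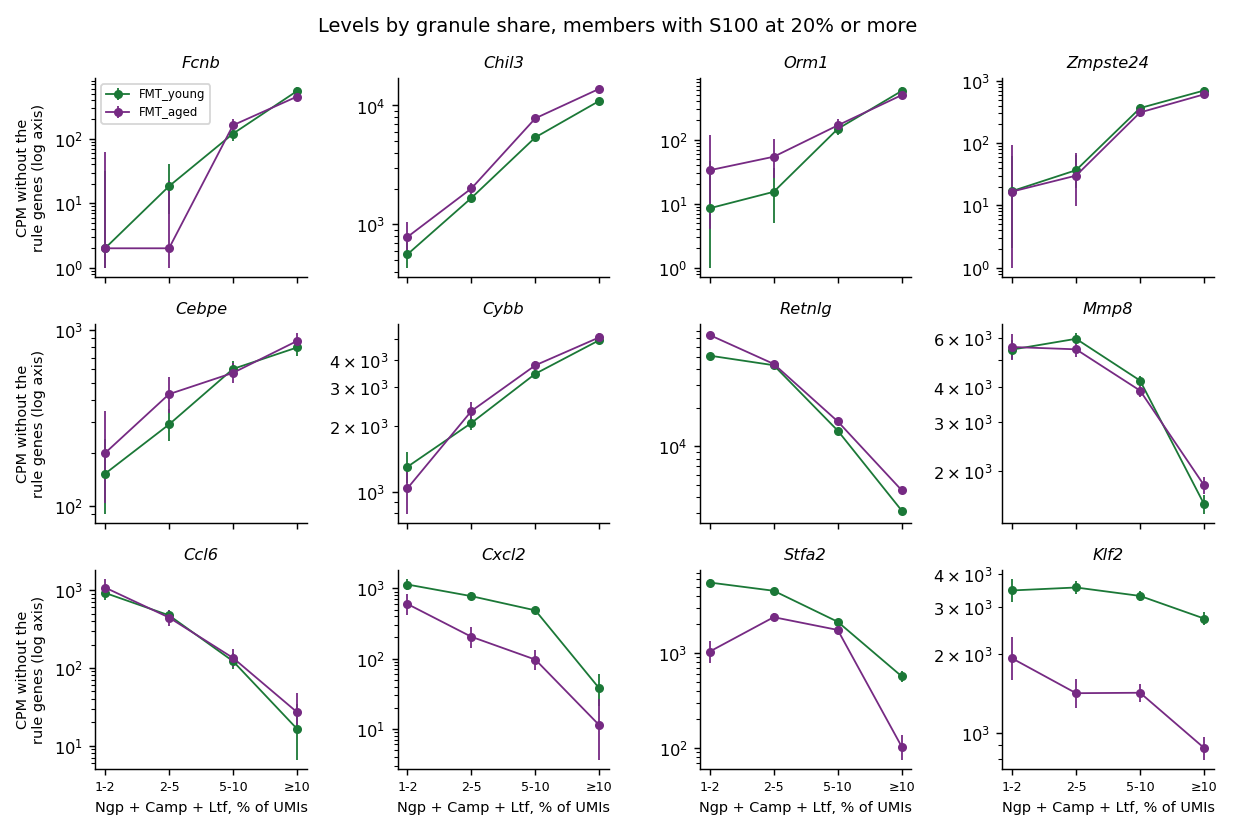
CPM over UMIs other than those of the genes of the rule (y, log axis) of 12 genes in S100-high members, by the share of Ngp, Camp and Ltf (x, 4 bins), 1 line per library. Bars are exact 95% Poisson intervals and a level of 0 is drawn near the foot of the axis. Fcnb, Chil3, Orm1, Zmpste24, Cebpe and Cybb are higher in bins of higher granule share and Retnlg, Mmp8, Ccl6, Cxcl2 and Stfa2 lower in the top bin than in the bottom bin. Klf2 stays apart between the libraries in all 4 bins.

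Going from the lowest to the highest granule bin, Fcnb was at 0, 18.4, 120 and 554 CPM in FMT_young and at 0, 0, 163 and 453 CPM in FMT_aged. Chil3 was at 560, 1669, 5398 and 10935 CPM in FMT_young and at 784, 2006, 7802 and 13826 CPM in FMT_aged. The acute phase protein gene Orm1 went from 8.49 to 579 CPM and from 33.4 to 498 CPM. The zinc protease gene Zmpste24 went from 17.0 to 701 CPM and from 16.7 to 608 CPM. Cebpe was at 153 CPM in the lowest and 800 CPM in the highest bin of FMT_young, and at 200 and 871 CPM in FMT_aged. Lcn2, not part of the rule, went from 15274 to 36514 and from 16768 to 38749 CPM.

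Of the 22 late maturation genes, 19 in FMT_young and 20 in FMT_aged were at a lower CPM in the highest than in the lowest bin. In both libraries 19 were lower, and Il1r2, Trem3 and Wfdc21 were not lower in both. The share of all genes lower in the highest bin is not given here. These counts are therefore not shown to be particular to this list. Retnlg, Cxcl2 and Il1f9, which are not on that list, were lower too. Retnlg was at 51006, 42948, 13270 and 3152 CPM in FMT_young and at 73880, 43961, 15662 and 4543 CPM in FMT_aged. The chemokine gene Ccl6 was at 925, 475, 122 and 16.4 CPM in FMT_young and at 1085, 446, 135 and 26.9 CPM in FMT_aged. Cxcl2, a neutrophil-attracting chemokine, went from 1137 to 37.5 CPM and from 601 to 11.2 CPM. The interleukin 36 gamma gene Il1f9 went from 645 to 61.0 CPM and from 601 to 56.1 CPM. Cxcr2 went from 866 to 235 CPM and from 901 to 260 CPM, and the C-type lectin receptor gene Clec4d from 246 to 7.04 CPM and from 400 to 2.24 CPM.

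Ranked over all members by the fixed rule for naming genes, the genes highest in the top bin against the lowest were Zmpste24, Inhba, Nos1ap, Orm1, Chil3 and Tmem45a2. Their log2 ratios were between 3.23 and 5.17 over both libraries. Elane, Prtn3, Mpo and Ctsg were among the 6 most in the lowest bin, at -4.15 to -6.01, together with Ccl6 and Hspe1. Of the 117 and 52 members in the lowest bin, only 35 and 23 were S100-high. In S100-high members alone the difference for Mpo was smaller: it was at 305 and 185 CPM in the end bins in FMT_young, and at 267 and 198 CPM in FMT_aged. Zmpste24, Orm1, Chil3 and Ccl6 were on both lists.

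Between the libraries, 226 of 4244 genes with at least 100 UMIs over both (5.33%) were higher in FMT_young and 70 (1.65%) lower, 6.97% in either direction. In the S100-high members 130 of 3233 (4.02%) were higher and 73 (2.26%) lower, 6.28% in either direction. The median log2 ratio of all tested genes was -0.01 and -0.02. Scaled to UMIs other than those of the rule's genes, which took 31.5% and 36.8% of all UMIs, the median became -0.12 and the split 157 higher and 164 lower. For the S100-high members, with 38.7% and 40.9% in these genes, the median became -0.07 and the split 114 and 109. Ratios below are on the total scale.

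Of the specific granule genes, 1 of 14 was past the limit in all members and 0 of 14 in the S100-high members. Of all genes tested, 6.97% and 6.28% were past it in either direction. In all members 13 of 14 had ratios below 0, with a median of -0.28. Among the S100-high members 12 of 14 did, with a median of -0.13. The one past the limit was Chil3, at 3133 CPM in FMT_young and 4802 in FMT_aged, a ratio of -0.62 (-0.66 to -0.58). Its ratio was -0.58 (-0.62 to -0.54) in the S100-high members, just short of the limit, and -0.38 when the 4 granule bins had equal weight. Camp was at -0.33 and Ltf at -0.27 in the S100-high members, and at -0.14 and -0.14 with equal bin weights. Ngp went from -0.13 to 0.02. Camp, Ltf and Ngp chose the cells, so their ratios are descriptions.

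The gelatinase granule and secretory vesicle list had 0 of 11 tested genes past the limit in either direction, with a median of 0.00 in all members and 0.16 in the S100-high members. Mmp8 was at 2398 and 1982 CPM in the S100-high members, a ratio of 0.27 (0.21 to 0.34), and Mmp9 at 2433 and 2670 CPM, a ratio of -0.13 (-0.19 to -0.08). Slpi, a protease inhibitor, was at 1170 and 932 CPM, a ratio of 0.33. The integrin gene Itgam and the formyl peptide receptor gene Fpr2 had ratios of 0.01 and 0.01. Alpl, the alkaline phosphatase of secretory vesicles, had 0 UMIs in both libraries, which allows up to 1.26 and 1.62 CPM in the S100-high members.

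The primary granule list had 3 of 11 tested genes higher in all members, against 5.33% of all genes tested: Srgn, Prtn3 and Ctsg. Elane was at 1164 and 849 CPM and Mpo at 901 and 761 CPM over all members. In the S100-high members Elane was at 113 and 81.0 CPM and Mpo at 129 and 124 CPM. Only Srgn was past the limit there, 1 of 10 tested genes, against 4.02% higher of all genes tested. Srgn, which encodes the serglycin core protein that packs granule contents, was at 597 CPM in FMT_young and 220 in FMT_aged, a ratio of 1.44 (1.28 to 1.60). It had a UMI in 327 of 416 S100-high members in FMT_young and in 153 of 305 in FMT_aged.

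**Figure D4:**
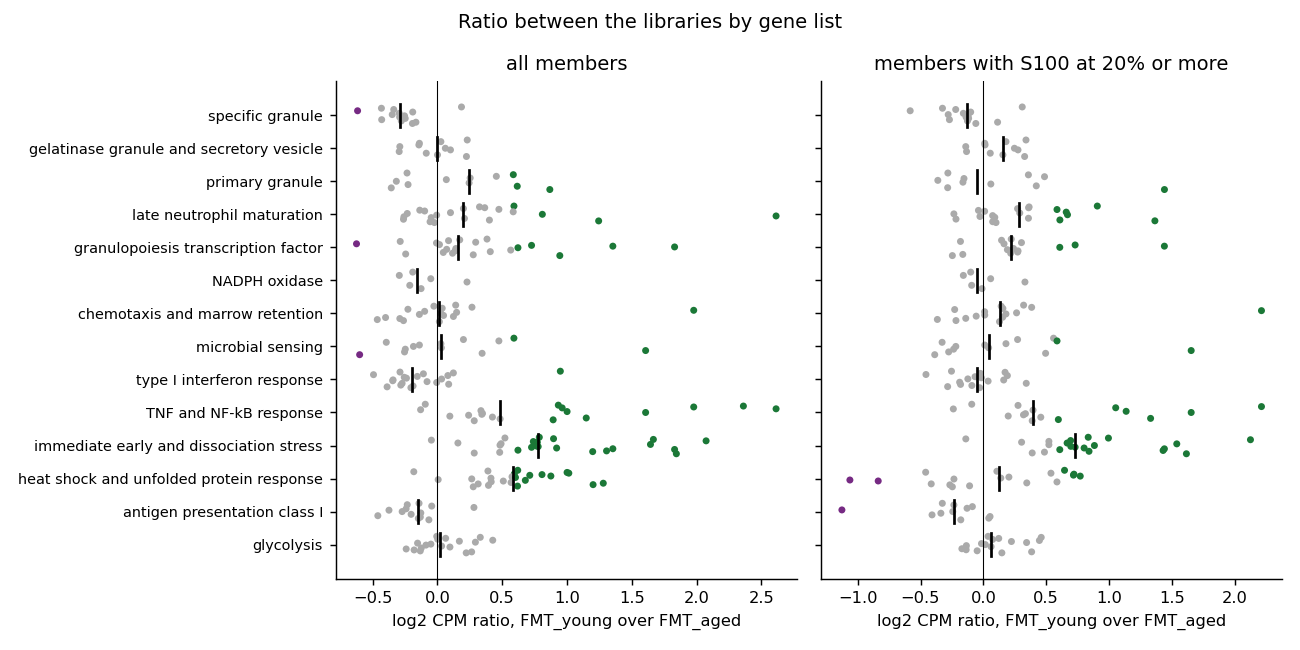
Each point is 1 tested gene of a list (y), by its log2 CPM ratio of FMT_young over FMT_aged (x), in all members (left) and in S100-high members (right). Green points were at least 1.5-fold higher, purple ones at least 1.5-fold lower, grey ones neither, and black bars are medians. The immediate early list is shifted to the right in both panels, with medians of 0.77 and 0.73, and the heat shock list only in the left one.

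Many immediate early genes differed together between the libraries. These are the transcription factors and regulators that many stimuli, tissue dissociation included, induce within minutes. In all members 17 of 24 tested genes of this list were higher in FMT_young and 0 lower, against 5.33% higher of all genes tested. The median was 0.77, against -0.01 over all genes. Among S100-high members the count was 15 of 21, against 4.02%, with a median of 0.73 against -0.02. Egr1, a zinc finger factor, was at 743 CPM in FMT_young and 171 in FMT_aged, a ratio of 2.12 (1.95 to 2.30). It had a UMI in 314 of 416 cells (75.5%) and in 126 of 305 (41.3%). Fos was at 1765 and 1092 CPM, a ratio of 0.69, Jun at 1719 and 1062 CPM, also 0.69, and Junb at 835 and 503 CPM, 0.73. Gadd45b, a stress sensor of the growth arrest family, was at 238 and 82.0 CPM, a ratio of 1.54 (1.28 to 1.80).

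Klf2, a Krüppel-like factor that holds leukocytes quiescent, was abundant and higher in FMT_young. Its level was 1964 CPM in FMT_young and 725 in FMT_aged, a ratio of 1.44 (1.35 to 1.53), and it had a UMI in 412 of 416 and 272 of 305 cells. After thinning, 94.4% and 61.9% of cells had one. By granule bin it was at 3471, 3562, 3308 and 2716 CPM in FMT_young and at 1919, 1415, 1421 and 878 CPM in FMT_aged, so the libraries differed in every bin. Klf6 was at 919 and 603 CPM, a ratio of 0.61. In the S100-high members, 3 of 15 tested genes of the granulopoiesis transcription factor list were higher: Klf2, Klf6 and Junb. None was lower, the median was 0.22, and 4.02% of all genes tested were higher. Of the others on this list, Cebpe had a ratio of -0.18, Cebpd 0.14, Cebpb 0.22 and Spi1, the PU.1 gene, 0.22. Gfi1 had too few UMIs there to be tested and is given below.

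The same genes were also higher in FMT_young in other cells. Egr1 had a ratio of 1.98 in the dividing cells, 1.80 in the low-granule cells, 1.96 in Fcnb and Elane cells, 1.42 in B cells and 1.30 in T cells. Klf2 had ratios of 1.72, 0.65, 2.12, 1.58 and 1.71 in the same order. The immediate early list had 26 of 30 genes higher in B cells, where 3.26% of all genes tested were, with a median of 0.97 against -0.25 over all genes. It had 19 of 30 higher in T cells, against 3.12% of all genes, with a median of 0.69 against -0.32. In the S100-high low-granule cells it had 5 of 19, against 6.53%, with a median of 0.42. Whether handling of the cells moved these genes was not tested. The library, its preparation and the group are 1 unit here and cannot be told apart.

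**Figure D5:**
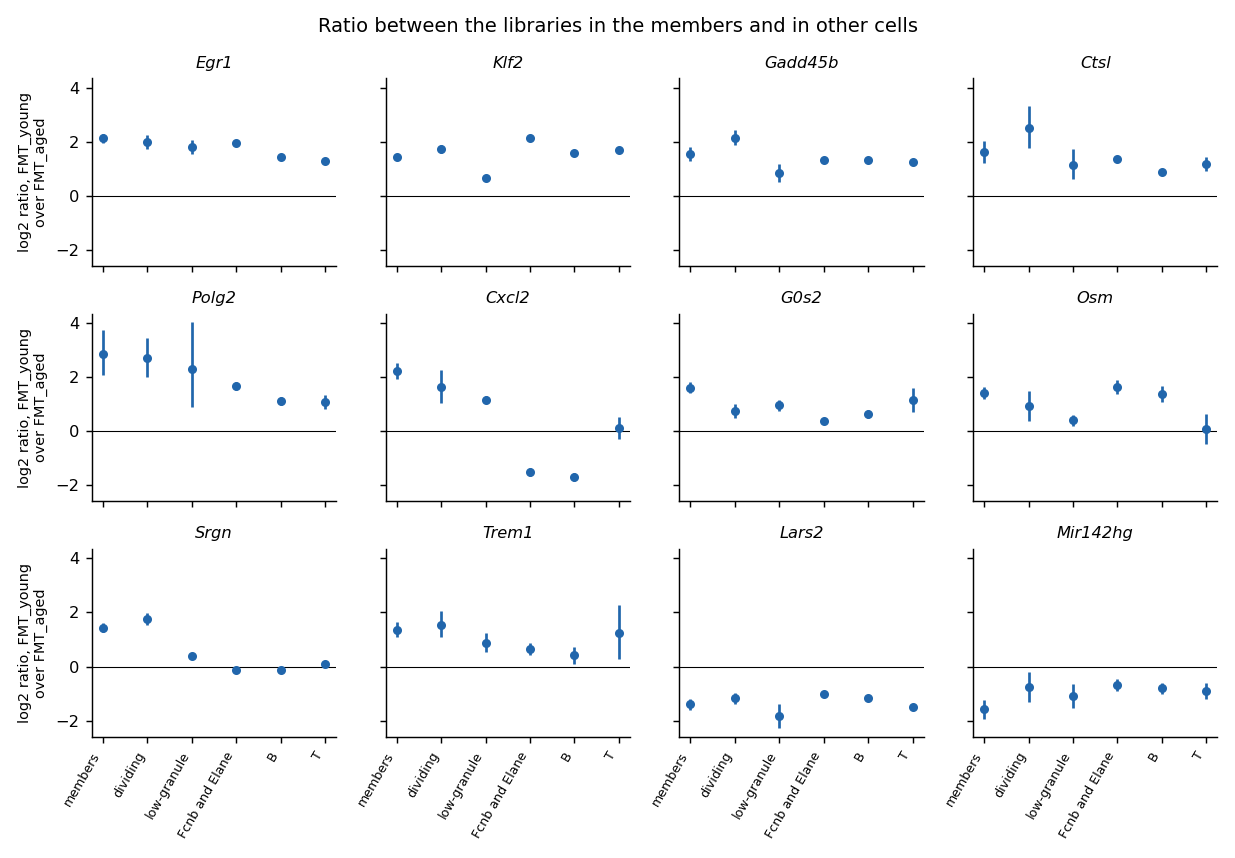
Log2 CPM ratio of FMT_young over FMT_aged (y) of 12 genes in granule-rich members, dividing cells and low-granule cells with at least 20% S100, and in Fcnb and Elane, B and T cells (x). Bars are exact 95% intervals of counting error. Egr1, Klf2, Gadd45b, Ctsl and Polg2 lie above 0 in all 6 and Lars2 and Mir142hg below, whereas Cxcl2 is above 0 in the 3 S100-rich groups and below 0 in Fcnb and Elane cells and B cells.

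Several inflammatory transcripts were higher in FMT_young. Cxcl2 was at 290 CPM in FMT_young and 62.6 in FMT_aged in the S100-high members, a ratio of 2.21 (1.92 to 2.51), and it had a UMI in 111 of 416 and 30 of 305 cells. Its ratio was 1.63 in dividing and 1.15 in low-granule cells, and -1.51 in Fcnb and Elane cells and -1.68 in B cells. Since Cxcl2 was higher at low granule share, of which FMT_young had more, the ratio with equal bin weights is also given: it was 1.81. Tnf, the tumour necrosis factor gene, was at 130 and 51.8 CPM, a ratio of 1.33 (0.99 to 1.67), and Nfkbiz, a regulator of NF-kB, at 440 and 200 CPM, a ratio of 1.13. Nlrp3, the inflammasome sensor, was at 44.1 and 14.0 CPM, a ratio of 1.65 (1.02 to 2.33). The TNF and NF-kB list had 9 of 19 genes higher in all members, against 5.33% of all genes tested. In the S100-high members it had 6 of 15, against 4.02%. The medians were 0.48 and 0.39, and 0 genes were lower. In Fcnb and Elane cells 12 of 32 genes of this list were higher and 1 lower, where 391 of all 10963 genes tested were higher. In B cells 8 of 32 were higher, against 3.26%, and 1 lower. In T cells 2 of 30 were higher, against 3.12%, and 2 lower.

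Il1b had 102 UMIs over all members in FMT_young and 11 in FMT_aged, a ratio of 2.61 (1.71 to 3.66). In S100-high members the ratio was 2.75 (1.75 to 3.93), from 78 and 9 UMIs. These UMIs were in few cells: 17 S100-high members in FMT_young, with up to 25 UMIs in 1 cell, and 6 in FMT_aged. Osm, the oncostatin M cytokine gene, was more evenly spread, with a UMI in 225 of 416 and 102 of 305 cells, levels of 310 and 117 CPM and a ratio of 1.41 (1.19 to 1.64). Trem1, a receptor that amplifies inflammatory signals, was at 190 and 73.9 CPM, a ratio of 1.36 (1.08 to 1.65), and G0s2, an inhibitor of lipolysis, at 458 and 151 CPM, a ratio of 1.61 (1.41 to 1.80). Phlda1 was at 185 and 63.1 CPM, a ratio of 1.55. The cathepsin gene Ctsl was at 111 and 36.2 CPM, a ratio of 1.62. Polg2, the accessory subunit of the mitochondrial DNA polymerase, was at 58.4 and 8.09 CPM, a ratio of 2.85 (2.08 to 3.73), with a UMI in 95 of 416 and 12 of 305 cells.

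The type I interferon list had 1 of 20 tested genes higher (Bst2) and 0 lower in all members, near the 5.33% higher of all genes tested. Its median was -0.20, against -0.01 over all genes. In the S100-high members 0 of 16 passed, against 6.28% of all genes tested. The median was -0.05, against -0.02. In T cells of the same libraries 19 of 30 genes of this list were lower, with a median of -0.67, where 15.4% of all genes tested were lower and their median was -0.32. The microbial sensing list had Cd14 and Nlrp3 higher and Tlr2 lower of 13 tested in all members, against 5.33% and 1.65% of all genes tested. In the S100-high members Nlrp3 and Clec4e were higher of 13 tested, against 4.02%. Clec4e, which encodes the Mincle receptor, was at 192 and 128 CPM, a ratio of 0.59 (0.36 to 0.82). Tlr2 was at 24.4 and 31.8 CPM in the S100-high members, a ratio of -0.39 (-0.94 to 0.16). Toll-like receptors 1, 4, 5, 6 and 9 had too few UMIs to be tested.

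The NADPH oxidase list had 0 of 6 past the limit, with medians of -0.16 and -0.05 in all and S100-high members, the glycolysis list 0 of 18 and 0 of 17, with medians of 0.02 and 0.06, and the S100 list 0 of 6 and 0 of 5. The oxidative phosphorylation list had 0 of 34 in all members, with a median of 0.09. Among S100-high members its median was -0.07, with 23 of 34 below 0. Its one gene past the limit in S100-high members was Uqcrc1, lower at 30.6 and 46.4 CPM. The late maturation list had 4 of 21 higher in all members and 6 of 20 in S100-high members, with medians of 0.20 and 0.28. Of all genes tested, 5.33% and 4.02% were higher. No gene of this list was lower. FMT_young had more of its S100-high members at low granule share, where 19 of the 22 genes of this list were at a higher level in both libraries, and the part of this in the count was not tested. Among the chemotaxis and retention genes only Cxcl2 passed, of 17 and 16 tested, and Cxcr2, at 259 and 257 CPM in the S100-high members, did not.

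Stefin A genes, a mouse cluster of cysteine protease inhibitors, took 2.07% of UMIs in S100-high members in FMT_young and 1.14% in FMT_aged. Stfa2 was at 1518 and 671 CPM, a ratio of 1.18 (1.08 to 1.27), and BC100530 at 6179 and 3299 CPM, a ratio of 0.91. Stfa2 was at 5507 CPM in the lowest and 568 in the highest granule bin in FMT_young, against 1034 and 103 CPM in FMT_aged. These genes are near-identical copies, so their reads can be split or lost in counting, and values of single members are uncertain.

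Heat shock and unfolded protein genes depended on which members were taken. In all members 12 of 24 were higher, against 5.33% of all genes tested, with a median of 0.58. In the S100-high members 4 of 18 were higher and 2 lower, against 4.02% and 2.26% of all genes tested. The median there was 0.12. The inducible chaperone genes Hspa1a and Hspa1b were the lower ones, Hspa1a at 32.3 and 67.5 CPM, a ratio of -1.06, with a UMI in 55 of 416 and 44 of 305 cells and up to 33 UMIs in 1 cell of FMT_aged. Pdia4 and Hsph1, higher in all members, had ratios of -0.24 and -0.25 in the S100-high members. Both had too few UMIs there to be tested.

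Among the genes lower in FMT_young, those of antigen presentation by class II molecules rested on S100-low members and largely on 1 cell. H2-Ab1 was at 30.4 CPM in FMT_young and 115 in FMT_aged over all members, a ratio of -1.92 (-2.27 to -1.59), but at 14.7 and 15.7 CPM in the S100-high members, a ratio of -0.09 (-0.84 to 0.67). A single FMT_aged member, with an S100 share of 7.68%, held 125 of the 253 H2-Ab1 UMIs and 128 of the 221 H2-Aa UMIs. Without it H2-Ab1 was at 58.8 CPM in FMT_aged, a ratio of -0.95 (-1.34 to -0.57), H2-Aa had a ratio of -0.60 and Cd74 0.03. With S100-high members only, H2-Aa went from -1.83 to -0.04 and Cd74 from -0.69 to 0.28, and Prg2, an eosinophil and basophil granule gene, went from -1.34 to 0.27. In the same way Mzb1, a plasma cell chaperone gene higher over all members at 159 and 25.1 CPM, was at 5.88 and 4.86 CPM in the S100-high members.

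Lower genes that held in the S100-high members were Mir142hg, the host transcript of microRNA 142, at 40.7 and 121 CPM, a ratio of -1.58 (-1.93 to -1.23), and Lars2, the mitochondrial leucyl-tRNA synthetase gene, at 126 and 330 CPM, a ratio of -1.39 (-1.59 to -1.19). Lars2 had ratios of -1.18 in B cells and -1.51 in T cells, and Mir142hg -0.81 and -0.91. AY036118, annotated as a long noncoding RNA, was at 34.0 and 101 CPM, a ratio of -1.58, with -1.26 in B cells and -1.57 in T cells. Whether the reads counted for Lars2 and AY036118 came from these transcripts or from other RNA was not tested. Hist1h2ac, a histone gene, had a ratio of -1.28, and Clec2d, the ligand of an inhibitory receptor, -1.21. Gfi1, a repressor needed for granulopoiesis, had 59 and 60 UMIs over all members, a ratio of -0.62 (-1.17 to -0.08). In S100-high members Gfi1 had 15 and 37 UMIs, too few to be tested, so it is not among the genes that held. Its ratio there was -1.66 (-2.64 to -0.76), with a UMI in 13 of 416 and 31 of 305 S100-high members. Over all members its ratio changed sign, to 0.042, when taken as the mean of the cells' own CPM.

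Some ratios rested on 1 or a few cells. Retnla had 287 UMIs in FMT_young and 0 of 2194537 UMIs in FMT_aged, which allows up to 1.37 CPM and makes it at least 63.1-fold higher, but 234 of the 287 UMIs came from 1 cell, and 2 S100-high members held 235. Hbb-bs, a globin gene, had 143 UMIs in FMT_young and 9 in FMT_aged, and 134 of the 143 came from 1 cell. Ccl5 was lower in the S100-high members at 17.6 and 57.7 CPM, with a UMI in only 14 and 9 cells and up to 37 UMIs in 1 cell of FMT_aged.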

How the data were processed

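Bone marrow libraries of 2 groups, FMT_young and FMT_aged, 1 each, were made with the Chromium 3' kit v3 per the labels' protocols. The deposited matrices hold raw UMI counts for 31053 genes and 6794880 barcodes, made by the authors with Cell Ranger 3.1.0 on mm10 (tool and build named in the submitters' processing notes, the version in the deposited headers). The deposited gene and barcode lists (unit other) hold names. The totals were 214982156 and 207642851 UMIs. A 3' count is not divided by transcript length, and strand settings are not given in the sources used here.

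Cells, members, neighbouring stages (B cells: 3 or more UMIs of Cd79a and Cd79b; T cells: 2 or more of Cd3d, Cd3e and Cd3g; both under 3% S100) and 4 granule bins were set by rules on UMIs in Python 3.11.15 with scipy 1.17.1. UMIs were summed per library, since cells are not replicates. A prior count of 0.5 was used only where a count was 0. Genes with at least 100 UMIs over both libraries were compared. Doublets were scored as in Scrublet (30 principal components, 2 simulated doublets per cell) and left out, at 0.8% per 1000 cells, only as an alternative. TMM factors came from edgeR 4.0.16, used for no test. The method was tested on simulated counts that held counting error only, not the spread between cells.

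Named genes were the 12 in each direction with at least 50 CPM whose interval bound nearest 0 was farthest from 0, 2 per direction in each list, all granule list members, the 15 leading genes, and 6 per direction between end bins. Others, such as Olfm4's spread over cells, Stfa2, Tnf, Nfkbiz and Fos, were picked after their values were seen. The members, markers and lists were chosen with earlier results of these data known. Of 115 named genes, 115 matched GENCODE vM21.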

Additional observations from a re-analysis of the deposited data

How the results depend on the processing

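No paired analysis was possible because each group was 1 library. The share ratio of 0.55 stayed between 0.38 and 0.56 under 8 alternatives and was 0.15 with a granule limit of 5%. The 226 higher genes became 114 with that limit, 149 with no UMI of Top2a or Mki67, 416 with genes of at least 30 UMIs, 130 in S100-high members and 114 in S100-high members scaled without the genes of the rule. The 70 lower genes became 164 scaled without those genes, 148 after subtraction of free RNA, 157 with genes of at least 30 UMIs and 109 in S100-high members scaled without those genes. The free RNA share was set from immunoglobulin UMIs at 35.4% in FMT_young and 17.4% in FMT_aged (2.17% and 2.41% in S100-high members), so that correction was large only over all members.

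Of 40 named genes past 1.5-fold, 11 changed sign in 30 of 709 recalculations, and the cause was not tested. With the granule limit of 5% the ratio was -2.53 for Mzb1, 0.74 for Prg2, -1.30 for Sox4, -0.00184 for Gstm1, -1.27 for Pdia4 and -0.53 for Hsph1. With an S100 limit of 6% it was 1.13 for Prg2. In S100-high members, then scaled without the genes of the rule, then with equal granule bin weights, it was 0.83, 0.78 and 0.72 for H2-Eb1, 0.27, 0.21 and 0.23 for Prg2, 0.28, 0.22 and 0.21 for Cd74, -0.36, -0.41 and -0.36 for Sox4, -0.24, -0.29 and -0.13 for Pdia4 and -0.25, -0.30 and -0.36 for Hsph1. Sox4 was at -0.083 without high doublet scores, Prtn3 at -0.11 with equal bin weights over all members, Gfi1 at 0.042 as the mean of the cells' own CPM and Hbb-bs at -0.74 with a mitochondrial limit of 5%. Cd74 was at 0.029 without the member highest in class II UMIs. The S100 limit of 20%, the equal bin weights and the omitted cell were chosen after seeing the data. Depth limits low genes: with 3326359 and 2194537 UMIs in the members, 11 of 24 measured microbial sensing genes had under 100 UMIs.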
